A study of Mus musculus with 3 samples.

Results

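The genes described are Top2a and Top2b, the pair of type II DNA topoisomerases of the mouse, and Mki67, which encodes the proliferation antigen Ki-67. They were chosen by name, as 3 of the 19744 genes in the count tables, and were read per cell in the 2267 of 20959 barcodes that held at least 200 counts. Single-cell mRNA was counted by Drop-seq in 3 medulloblastomas from G-Smo mice on a C57BL/6 background, numbered tumours 1, 2 and 3. In these mice Cre driven by the human GFAP promoter (hGFAP-Cre) switches on SmoM2, an activated Smoothened that drives the Hedgehog pathway, in the neural stem cells and progenitors in which that promoter is active, so the allele is not confined to granule neuron progenitors. Mice were injected intraperitoneally once a day, 5 times from postnatal day 10, with POx-palbo, a polyoxazoline nanoparticle carrying palbociclib (25 mg/kg), which blocks CDK4 and CDK6 and so entry into S phase. Part of each tumour was dissociated on postnatal day 16. All 3 tumours form 1 group; untreated tumours are not analysed here, and every comparison is between sets of cells of the same tumours. The labels number the tumours without naming an animal for each, so results speak only for these 3 samples. The p-values of the gene fits also rest on a spread pooled over genes. A small one therefore does not show that the 3 tumours agreed.

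Type II topoisomerases pass one DNA duplex through a transient break in another. Top2a is made mainly in proliferating cells, rises through S and G2 phase and untangles sister chromatids at mitosis, and Mki67 is transcribed in cycling cells, its protein coating mitotic chromosomes. Top2b is also made in cells that have left the cell cycle, and in the developing cerebellum granule neurons are known to lose Top2a and keep Top2b as they differentiate. Neurod1, a basic helix-loop-helix factor switched on as granule neuron progenitors begin to differentiate, was used to set cells with at least 1 Neurod1 UMI (a unique molecular identifier, here 1 count) apart from cells with none. At 200 thinned counts Neurod1 was found in 11.1% of 162 barcodes called another type (exact 95% interval 6.72% to 17.0%, median depth 527 counts) and in 26.5% of the other 2105 (24.6% to 28.4%, median depth 305), so a single UMI does not show that a cell expressed Neurod1, and the positive set can hold cells whose UMI is background.

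The promoters of the 3 genes are shown because Top2a and Mki67 were found in the same cells more often than their frequencies give, while no direction could be given for pairs with Top2b. Each window runs from 250 bases before to 50 bases after the RefSeq transcription start (RefSeq annotation of GRCm38.p6), and is printed 5′ to 3′ on the strand of the gene. Capitals mark CCAAT or its reverse complement ATTGG, the box bound by NF-Y, TTTGAA or TTCAAA, the letters of the cell cycle homology region bound by the MuvB complex, and TTCGAA, a variant of those letters. Top2a lies at chr11:99024140-99024439 on the minus strand, Mki67 at chr7:135716330-135716629 on the minus strand and Top2b at chr14:16364956-16365255 on the plus strand.
Top2a: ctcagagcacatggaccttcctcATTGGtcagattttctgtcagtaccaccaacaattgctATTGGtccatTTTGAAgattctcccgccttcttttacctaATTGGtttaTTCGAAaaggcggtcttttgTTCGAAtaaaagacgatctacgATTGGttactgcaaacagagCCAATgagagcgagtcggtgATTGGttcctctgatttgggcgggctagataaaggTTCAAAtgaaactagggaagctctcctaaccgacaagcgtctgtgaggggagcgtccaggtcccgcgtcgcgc
Mki67: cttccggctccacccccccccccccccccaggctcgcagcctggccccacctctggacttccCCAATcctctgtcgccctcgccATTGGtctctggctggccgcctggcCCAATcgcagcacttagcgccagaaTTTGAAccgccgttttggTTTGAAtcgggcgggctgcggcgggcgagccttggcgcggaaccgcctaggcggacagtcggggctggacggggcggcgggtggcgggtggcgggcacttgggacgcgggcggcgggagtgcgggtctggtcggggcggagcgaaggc
Top2b: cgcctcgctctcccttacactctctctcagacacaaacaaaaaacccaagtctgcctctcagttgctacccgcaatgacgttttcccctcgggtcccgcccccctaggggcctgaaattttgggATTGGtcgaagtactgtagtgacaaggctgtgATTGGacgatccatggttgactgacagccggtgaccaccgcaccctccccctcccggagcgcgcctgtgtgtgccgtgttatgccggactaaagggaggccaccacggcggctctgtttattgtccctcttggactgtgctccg
The Top2a window held 6 CCAAT boxes, 2 copies of TTTGAA and 2 of TTCGAA, with a GC content of 47.7%. Mki67 held 3 CCAAT boxes and 2 copies of TTTGAA at 72.7% GC, and Top2b held 2 CCAAT boxes and neither other motif at 58.3% GC. Of 32544 RefSeq promoter windows of the same length, 37.4% held a CCAAT box, 11.6% at least 2 and 0.273% at least 5. TTTGAA was found in 17.8% of windows, at least 2 copies in 2.32%, and TTCGAA in 1.56%. The E2F letters TTTGGCGC, TTTCGCGC and TTTCCCGC, on either strand, were in 1.86% of windows and in none of the 3 printed here. The motifs do not overlap each other, and they were chosen with these sequences and earlier results known. A match describes letters in a window and does not show a bound site.

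Depth was low. The 3 tables held 248617 to 1324350 counts, and 1060, 148 and 1059 barcodes of tumours 1, 2 and 3 reached 200 counts, with medians of 353.5, 255.5 and 301 counts. Tumour 2 therefore gave few cells, and it also had the highest median share of mitochondrial counts, 8.71%, against 4.52% and 5.27% in tumours 1 and 3. Barcode sequences shared by pairs of tables numbered 3 to 8 over all barcodes and 0 among those of 200 counts or more. The tumours differed from each other by more than sampling noise, with chi-square values per degree of freedom of 2.21 to 2.82 over genes. By markers, 94, 13 and 55 barcodes were called another cell type. The 3′ tag counts are not scaled to transcript length, so levels are compared between cells for 1 gene and not between genes.

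Across all cells, a minority of barcodes held each mRNA. Top2a was found in 250, 40 and 260 cells of tumours 1, 2 and 3, Mki67 in 217, 32 and 264, and Top2b in 212, 15 and 223, or 25.1%, 22.3% and 17.1% of cells on average. Tumour 2 thus had the lowest Top2b share, while its Top2a and Mki67 shares lay near those of the other tumours. Levels were 12.8 ± 1.19 counts per 10000 for Top2a, 11.97 ± 0.766 for Mki67 and 5.55 ± 2.03 for Top2b (SD, n = 3 tumours). None of the 3 mRNAs was seen in 52.8%, 53.4% and 51.4% of cells. Top2b without Top2a or Mki67 was seen in 14.8%, 7.43% and 13.0% of cells, and Top2a with Mki67 but without Top2b in 9.53%, 8.11% and 10.01%.

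Top2a and Mki67 mRNA were found in fewer Neurod1-positive than Neurod1-free cells in every tumour, and Top2b was not. There were 330, 51 and 407 Neurod1-positive and 730, 97 and 652 Neurod1-free cells in tumours 1, 2 and 3, with similar depth, medians of 372.5, 253 and 316 against 345, 256 and 294 counts. To hold depth equal, each cell was thinned at random to 200 counts. Top2a was then found in 8.79%, 13.7% and 13.5% of Neurod1-positive cells, against 17.8%, 23.7% and 19.2% of Neurod1-free cells. Mki67 was found in 8.18%, 9.80% and 11.8% of Neurod1-positive cells, against 13.2%, 20.6% and 20.2% of Neurod1-free cells. The sets did not overlap for either gene, but how often this holds over all genes was not measured. Top2b was found in 13.0%, 7.84% and 14.3% of Neurod1-positive cells, against 12.1%, 9.28% and 12.6% of Neurod1-free cells, so the sets overlapped. Means were 12.01% ± 2.79 against 20.2% ± 3.09 for Top2a, 9.93% ± 1.81 against 18.0% ± 4.21 for Mki67 and 11.7% ± 3.40 against 11.3% ± 1.77 for Top2b (SD, n = 3 tumours). Before thinning they were 19.5% against 28.0%, 18.4% against 24.4% and 18.1% against 16.5%. An exact two-sided sign-flip permutation test over the 3 tumours gave p = 0.25 for Top2a and Mki67, the smallest 3 tumours allow, and p = 0.75 for Top2b (0.344 and 0.825 after Benjamini-Hochberg adjustment over 11 quantities compared this way).

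**Figure D1:**
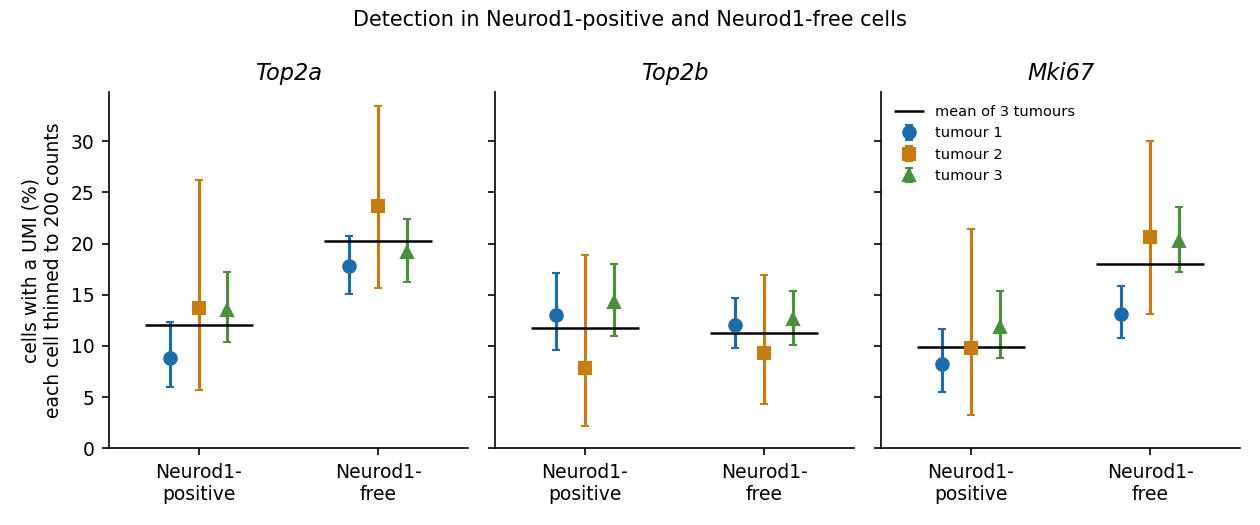
Share of cells with a UMI of Top2a, Top2b or Mki67 (%, each cell thinned to 200 counts) in Neurod1-positive and Neurod1-free cells; points are tumours with exact 95% binomial intervals for counting error only, and lines are means of 3 tumours. Top2a and Mki67 lie lower in Neurod1-positive cells of every tumour (8.79% to 13.7% against 17.8% to 23.7% for Top2a), while the Top2b points overlap.

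Counts summed per tumour gave the same order for levels. Top2a stood at 7.17, 10.9 and 10.2 counts per 10000 in Neurod1-positive cells of tumours 1, 2 and 3, against 13.8, 16.3 and 14.3 in Neurod1-free cells. Mki67 stood at 9.21, 7.78 and 10.7 against 12.8, 14.1 and 14.3, and Top2b at 6.97, 2.59 and 7.23 against 6.11, 3.70 and 6.89. In edgeR's quasi-likelihood test with the tumour as a block, 38 of 3479 genes passed an adjusted p of 0.05 (Benjamini-Hochberg over all genes tested), 1.09% of those tested, 29 higher (0.834%) and 9 lower (0.259%) in Neurod1-positive cells. The level of Top2a fell (log2 change -0.71, SE 0.16, edgeR adjusted p = 0.0213, lower in 3 of 3 tumours). Mki67 had a log2 change of -0.51 (SE 0.16, edgeR adjusted p = 0.134, lower in 3 of 3) and did not pass, and Top2b had 0.09 (SE 0.18, edgeR adjusted p = 0.918). Sums over cells do not tell fewer cells with an mRNA from less mRNA per cell. Where the sets were defined from thinned counts, Mki67 passed as well, with a log2 change of -1.13 (edgeR adjusted p = 1.97e-08), beside -0.99 for Top2a (6.71e-07) and -0.07 for Top2b. Without tumour 2, Top2a had -0.70 and Mki67 -0.44 (edgeR adjusted p = 0.0402), and 106 genes passed. Leaving out tumour 1 or tumour 3 ended every call, with Top2a at -0.55 and -0.80. DESeq2 called 0 genes (80 at an unadjusted p under 0.05, against 371 with edgeR) and gave Top2a -0.70 with an adjusted p of 1.00.

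The genes that rose with Neurod1 included Celf4, an RNA-binding regulator of neurons (log2 change 1.61), the axonal adhesion gene Cntn2 (1.56), the imprinted RNA Meg3 (1.96) and the microtubule-associated Map1b (0.98). Mtss1, Ank2, Elavl3, Stmn2, Arpp21 and Spp1, which encodes the secreted protein osteopontin, also rose, by 1.08 to 2.11. Besides Top2a, the named genes that fell were the replicative helicase subunits Mcm3 (log2 change -1.31) and Mcm6 (-1.24), the centromere chaperone Hjurp (-0.98), the collagen gene Col4a1 (-1.79) and the mitochondrial ribosomal RNAs mt-Rnr2 (-0.57) and mt-Rnr1 (-0.56). Of the granule neuron list, 5 of 13 tested rose and 0 fell, median log2 change 0.91 against -0.01 over all genes. The summed level of the whole list was 133, 90.7 and 121 counts per 10000 in Neurod1-positive cells, against 59.5, 44.4 and 42.3 in Neurod1-free cells. That sum includes Neurod1 itself, absent from Neurod1-free cells by definition, so part of this gap was fixed by how the sets were made. The axon growth and migration list had 10 of 25 higher (median 0.91), and the long neuronal gene list 0 of 9 (0.43). Lists share genes, so their counts are not separate: Cntn2, Map2 and Tubb3 rose in both the granule neuron and axon lists. The G2/M and mitotic chromosome lists both hold Smc4. For the S phase list 0 of 36 rose and 2 fell (median -0.54), for the G2/M list without the 3 members 0 of 48 rose and 1 fell (-0.33), and for other genes of DNA topology and topoisomerase repair 0 of 9 moved (-0.11). Nor did any of 20 genes of mitotic chromosome structure (-0.30) or of 13 Hedgehog and progenitor genes (-0.45), and 1 of 7 myeloid genes, the lysozyme Lyz2, fell (-1.61). Top1, the type I topoisomerase that nicks a single strand, had a log2 change of 0.25 (edgeR adjusted p = 0.767). No list of these had a call without tumour 1 or tumour 3, and without tumour 2 the granule neuron list had 9 of 15 higher.

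Mitochondrial counts, which rise in damaged cells, were lower in Neurod1-positive than in Neurod1-free cells, 4.94%, 7.75% and 5.37% against 5.98%, 13.5% and 6.93%. Among barcodes of at most 10% mitochondrial counts Top2a still fell (log2 change -0.67, edgeR adjusted p = 0.0364). Markers of other cell types were present in both sets, and 5.76%, 9.80% and 3.93% of Neurod1-positive against 10.3%, 8.25% and 5.98% of Neurod1-free barcodes were called another type. Summed levels were 13.5 to 21.3 against 14.5 to 27.8 counts per 10000 for 14 astrocyte markers, 6.71 to 52.9 against 10.5 to 19.5 for 15 myeloid markers, 3.34 to 28.0 against 2.96 to 6.46 for 11 oligodendrocyte markers, and 0.526 to 13.0 against 2.41 to 5.55 for 13 endothelial and mural markers. Cspg4, Pecam1, Kcnj8 and Lum were at 0 in Neurod1-positive cells. Erythroid markers summed to 0.855 to 3.63 against 1.08 to 3.21. Without barcodes called another type, Top2a had a log2 change of -0.69 (edgeR adjusted p = 0.00113) and Mki67 of -0.50 (0.0377).

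Top2a levels were lower the more Neurod1 UMIs a cell held in tumours 1 and 3. Top2a levels at 0, 1, 2 and 3 or more Neurod1 UMIs were 13.8, 9.80, 6.22 and 3.22 counts per 10000 in tumour 1 and 14.3, 13.1, 7.82 and 6.11 in tumour 3. Top2b levels were 6.11, 7.97, 4.67 and 6.91 in tumour 1 and 6.89, 7.32, 7.82 and 6.58 in tumour 3, with no order along the series. Tumour 2 had only 11 cells with 2 and 5 with 3 or more Neurod1 UMIs, and its Top2a levels were 16.3, 12.8, 5.96 and 11.6. The share of Top2b in the summed Top2a and Top2b counts, a ratio read in the same cells, was 49.3%, 19.2% and 41.5% in Neurod1-positive cells, against 30.6%, 18.5% and 32.5% in Neurod1-free cells. It was higher in 3 of 3 tumours, though nearly equal in tumour 2. The means were 36.7% ± 15.6 and 27.2% ± 7.58 (SD, n = 3 tumours). Within tumours the difference averaged 9.47 percentage points with an SD of 8.99 (exact sign-flip permutation p = 0.25, adjusted 0.344). Mki67 status divided this share further. Among Neurod1-positive cells Top2b took 26.1%, 14.3% and 24.5% where Mki67 was found, against 66.7%, 21.1% and 60.0% where it was not.

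G2/M mRNA in the same cell set Top2a and Mki67 apart from Top2b. Cells were divided by the UMIs of 62 other G2/M genes among their 200 thinned counts into those with 0, with 1 and with 2 or more. Top2a stood at 2.65, 6.47 and 20.3 counts per 10000 in tumour 1, at 3.22, 5.11 and 25.3 in tumour 2 and at 3.74, 5.15 and 18.6 in tumour 3. Mki67 stood at 2.06, 3.57 and 22.2 in tumour 1, 3.22, 7.03 and 18.3 in tumour 2, and 2.87, 4.01 and 19.7 in tumour 3. Both were lowest at 0 and highest at 2 or more G2/M UMIs in every tumour. Top2b stood at 7.44, 7.23 and 5.26 in tumour 1, 2.15, 3.20 and 3.75 in tumour 2 and 8.24, 7.56 and 6.41 in tumour 3. It was thus lower with more G2/M UMIs in tumours 1 and 3. In tumour 2 it was higher, but on only 2, 5 and 8 Top2b counts. The Top2b share of the topoisomerase II counts averaged 60.8%, 50.2% and 19.7% at 0, 1 and 2 or more. Tumour 2 gave only 3 Top2a and 2 Top2b counts at 0. By S phase UMIs the gradient was shallower, with Top2a means of 7.92, 15.2 and 16.8 and Mki67 means of 6.93, 14.9 and 16.01. By granule neuron marker UMIs the order of the means turned, with Top2a at 14.8, 13.6 and 9.59, Mki67 at 14.4, 12.5 and 8.14 and Top2b at 5.42, 5.79 and 5.51. Tumour 2 did not follow either order, and its Top2a and Mki67 were highest at 1 UMI in both series. Its Top2a stood at 7.73, 21.7 and 16.5 by S phase UMIs and at 14.4, 16.9 and 10.7 by neuron marker UMIs.

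**Figure D2:**
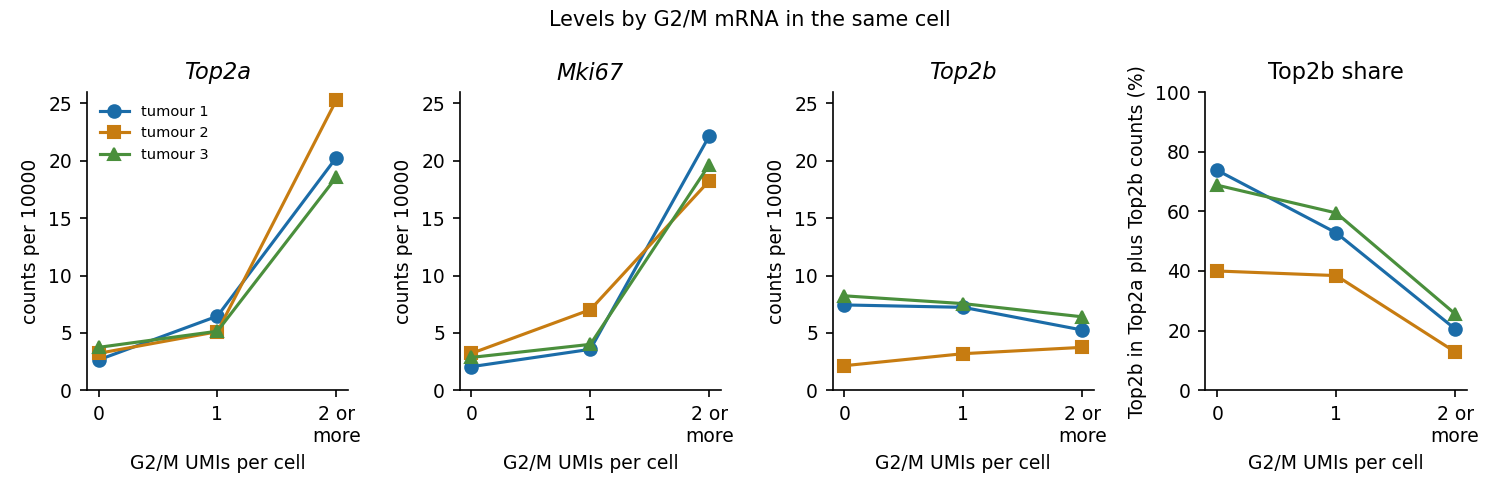
Levels of Top2a, Mki67 and Top2b (counts per 10000) and the Top2b share of Top2a plus Top2b counts (%) in cells with 0, 1 and 2 or more UMIs of other G2/M genes among 200 thinned counts, 1 line per tumour. Top2a and Mki67 reach 18.3 to 25.3 at 2 or more G2/M UMIs, where Top2b lies at 3.75 to 6.41.

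The same cells held Top2a and Mki67 more often than their separate frequencies give. At 200 counts per cell, 43, 12 and 61 cells held both in tumours 1, 2 and 3, against 18.5, 5.07 and 30.6 expected from the shares within each tumour. The ratios of observed to expected were 2.33, 2.37 and 1.99, mean 2.23 ± 0.206 (SD, n = 3 tumours), all above 1. Top2a and Top2b were together in 13, 1 and 25 cells against 19.7, 2.64 and 23.8 expected, and Mki67 and Top2b in 9, 0 and 23 against 15.2, 2.20 and 23.8. Tumour 3 lay close to the expected number for both pairs with Top2b and tumour 1 below it, and the pooled ratios, 0.846 (exact Poisson 95% interval 0.602 to 1.16) and 0.777 (0.531 to 1.10), did not differ from 1 beyond counting error. In unthinned counts the pooled ratios were 0.965 and 1.03 (1.16 and 1.26 among Neurod1-positive cells), and 2.29 for Top2a with Mki67. The mean over tumours for Mki67 with Top2b was 0.520 ± 0.487 (SD, n = 3) at 200 counts per cell and 1.35 at 100 counts, so no direction can be given for the pairs with Top2b. The 0 cells in tumour 2 allow up to 3, above the number expected. Top2a and Mki67 were also found together in Neurod1-positive cells, 26 observed against 9.55 expected, a ratio of 2.72 (1.78 to 3.99), and in Neurod1-free cells, 90 against 47.1, a ratio of 1.91 (1.54 to 2.35). The difference between these ratios was not tested.

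**Figure D3:**
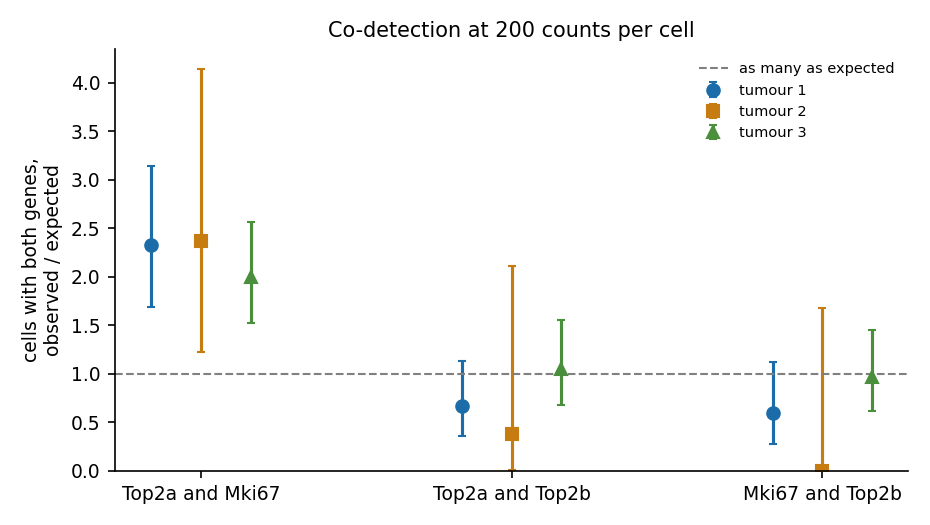
Cells with both genes of a pair, observed over expected at 200 counts per cell, for each tumour with exact 95% Poisson intervals of the observed number; the dashed line marks a ratio of 1. Top2a with Mki67 lies at 1.99 to 2.37 in all 3 tumours, and both pairs with Top2b have intervals that reach 1.

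In Top2a-positive cells Mki67 was higher and Neurod1 lower than in Top2a-free cells. The 250, 40 and 260 Top2a-positive cells were deeper than the 810, 108 and 799 Top2a-free cells, with medians of 457.5, 262 and 384 against 330, 254 and 285 counts. Mki67 stood at 27.8, 20.1 and 25.6 counts per 10000 in Top2a-positive cells of tumours 1, 2 and 3, against 4.97, 7.73 and 6.71 in Top2a-free cells. Of 2929 genes tested with edgeR, 83 rose (2.83%) and 39 fell (1.33%), 4.17% in all, and Mki67 had the smallest p of all (log2 change 2.06, SE 0.17, edgeR adjusted p = 1.51e-28). Top2b was lower in 3 of 3 tumours, 4.78, 2.16 and 6.32 against 7.06, 3.71 and 7.39, but did not pass (log2 change -0.42, SE 0.21, edgeR adjusted p = 0.374). Neurod1 fell, at 6.85, 12.2 and 11.6 against 16.7, 17.6 and 24.7 (log2 change -1.13, SE 0.17, edgeR adjusted p = 1.72e-08). Its call was lost without tumour 1 (-0.94) and without tumour 3 (-1.07), while Mki67 passed in each case, at 1.66 or more.

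The G2/M list rose as a group with Top2a: 35 of 49 tested rose and 0 fell, with a median log2 change of 1.59 against -0.03 over all genes. Leading genes were the kinetochore scaffold Casc5 (2.39), the centromere protein Cenpf (1.84), the spindle midzone bundler Prc1 (2.14), the passenger complex subunit Incenp (2.04) and the spindle pole gene Aspm (2.48). The mitotic motors Cenpe and Kif15 and the spindle gene Hmmr rose by 1.55 to 2.20. Among genes of mitotic chromosome structure 8 of 18 rose, including the condensin subunits Smc4 (1.46), Smc2 (1.30) and Ncapg (2.01), while the cohesin subunit Smc1a did not pass (0.42). Of the S phase list 9 of 33 rose (median 0.61), among them the helicase subunit Mcm7 (1.16) and the histone chaperone Nasp (0.70). In the list of other DNA topology and topoisomerase repair genes 2 of 8 rose, the helicase Blm (1.37) and the checkpoint scaffold Topbp1 (1.31), and Top1 did not pass (0.09). Without tumour 1, 2 and 3 the whole comparison had 18, 239 and 20 calls, the G2/M list 10 of 41, 52 of 59 and 13 of 38 higher, and the S phase list 0 of 21, 9 of 39 and 0 of 22. DESeq2 called 22 genes, all higher and 16 of them in the G2/M list. With sets defined at 200 thinned counts, so that depth did not decide membership, 74 genes passed, Mki67 had a log2 change of 1.63 and the G2/M list had 26 of 35 higher.

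Neuronal genes lay on the other side. Of the granule neuron list 7 of 13 fell with Top2a and 0 rose (median -0.91), with Cntn2 at -1.46, Celf4 at -1.33, Map2, a dendritic microtubule protein, at -0.86 and the splicing factor Rbfox3 at -0.85. The axon growth list had 12 of 24 lower, including the reticulon Rtn1 (-0.87), and further named genes that fell were Apc2, Uncx, A330076H08Rik and Ckb, the brain creatine kinase. Without tumour 1 or tumour 3 neither list had a call. The matrix genes Sparc (-1.30) and Sparcl1 (-0.75) fell too, which granule neurons are not known for. Oligodendrocyte markers summed to 2.15 to 3.99 counts per 10000 in Top2a-positive against 4.70 to 18.2 in Top2a-free cells, with 8 of 11 and 11 of 11 detected, Mog, Mag and Sox10 being at 0 in Top2a-positive cells. Astrocyte markers summed to 13.0 to 20.7 against 14.6 to 29.0 and myeloid markers to 4.99 to 73.0 against 11.1 to 15.0, the 73.0 being in tumour 2. Endothelial and mural markers summed to 0.715 to 2.38 against 2.13 to 12.1. Without barcodes called another type the G2/M list had 38 of 50 higher and the granule neuron list 7 of 13 lower. None of 13 Hedgehog and progenitor genes tested passed (median 0.12), with the cyclins Ccnd2 at -0.03 and Ccnd1 at 0.30.

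Of the 83 genes higher with Top2a, 71 (85.5%) had a RefSeq promoter window. Of these 38 (53.5%) held TTTGAA and 48 (67.6%) held CCAAT, a gene counting if any of its windows held the letters. Among all single windows the shares were 17.8% and 37.4%, an unlike measure, so no difference is drawn from them. Of all genes tested 79.3% had a window, and 15.1% of these held TTTGAA and 44.8% CCAAT; of the 39 genes that fell 25 (64.1%) had one, and 5 held TTTGAA (20%) and 14 CCAAT (56%). These sets count genes in the same way, but the share of genes with a window differed, from 64.1% to 85.5%. A difference in motif shares was not tested, and none is drawn.

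In Mki67-positive cells Top2a was higher and Neurod1 lower than in Mki67-free cells; the comparison shares cells with that of Top2a and is given beside it. Top2a stood at 27.1, 14.9 and 25.2 counts per 10000 in the 217, 32 and 264 Mki67-positive cells of tumours 1, 2 and 3, against 5.74, 13.7 and 6.70 in the 843, 116 and 795 Mki67-free cells. The difference was large in tumours 1 and 3 and small in tumour 2. Of 2840 genes 53 rose (1.87%) and 28 fell (0.986%) with edgeR, 2.85% in all, among them Top2a (log2 change 1.62, SE 0.27, edgeR adjusted p = 0.000252) and Neurod1 (-1.32, SE 0.22, edgeR adjusted p = 0.000252), while Top2b did not pass (-0.40, SE 0.23, edgeR adjusted p = 0.617). The G2/M list had 33 of 50 higher (median 1.58). It was led by Aspm, Incenp, Prc1, the spindle kinesin Kif11 (2.40), Casc5, the centromeric cohesion protector Sgol2 and Cdca2. Outside the list, the condensin subunit Ncapg and the GTPase activator Arhgap11a (2.32) also rose. The S phase list had 0 of 29 higher (median 0.56), and the granule neuron list 8 of 12 lower (median -1.19), with the neuronal tubulin Tubb3 at -1.17 and the early bHLH gene Nhlh1 at -1.36. Cntn2, Celf4, Stmn2, Sept3, Apc and A330076H08Rik were further named genes that fell. Oligodendrocyte markers summed to 2.02 to 4.20 counts per 10000 in Mki67-positive against 4.59 to 18.7 in Mki67-free cells, and myeloid markers to 8.37 to 69.5 against 9.64 to 15.9. Without barcodes called another type the G2/M list had 34 of 48 higher. Without tumour 1 or tumour 3 there was no call, Top2a being at 1.08 and 1.24, and without tumour 2 there were 152, with Top2a at 2.06. DESeq2 called 10 genes, all higher. Mki67-positive cells were also deeper, with medians of 528, 298 and 384 against 323, 245 and 286 counts, and with thinned sets 40 genes passed, Top2a had 1.47, the G2/M list 21 of 33 higher and the granule neuron list 2 of 12 lower.

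No gene separated Top2b-positive from Top2b-free cells. Between the 212, 15 and 223 Top2b-positive and the 848, 133 and 836 Top2b-free cells, 0 of 2451 genes passed with edgeR (35 at an unadjusted p under 0.05), and 0 with DESeq2 (13 unadjusted). Top2a had a log2 change of -0.19 (SE 0.24), Mki67 of -0.09 (SE 0.24) and Neurod1 of -0.20 (SE 0.24), each lower in 2 of 3 tumours. The median log2 change was -0.03 for 42 G2/M genes and -0.15 for 13 granule neuron genes, against -0.04 over all genes. Among 9 tested genes of the list of very long neuronal genes, a class whose transcription is known to depend on topoisomerases, the median was -0.01. Top2b-positive cells were deeper, with medians of 467, 260 and 367 against 332.5, 255 and 291 counts. With thinned sets the log2 changes were larger but uncalled, -0.78 for Top2a (edgeR adjusted p = 0.281), -0.54 for Mki67 and a median of -0.41 for 21 G2/M genes, and Neurod1 had 0.036. The only gene called there was Apoe, a lipid carrier of astrocytes and myeloid cells (-1.40), named after its value was seen, and it was also the only call without tumour 3. In tumour 2 the 15 Top2b-positive cells held 1 Top2b UMI each.

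**Figure D4:**
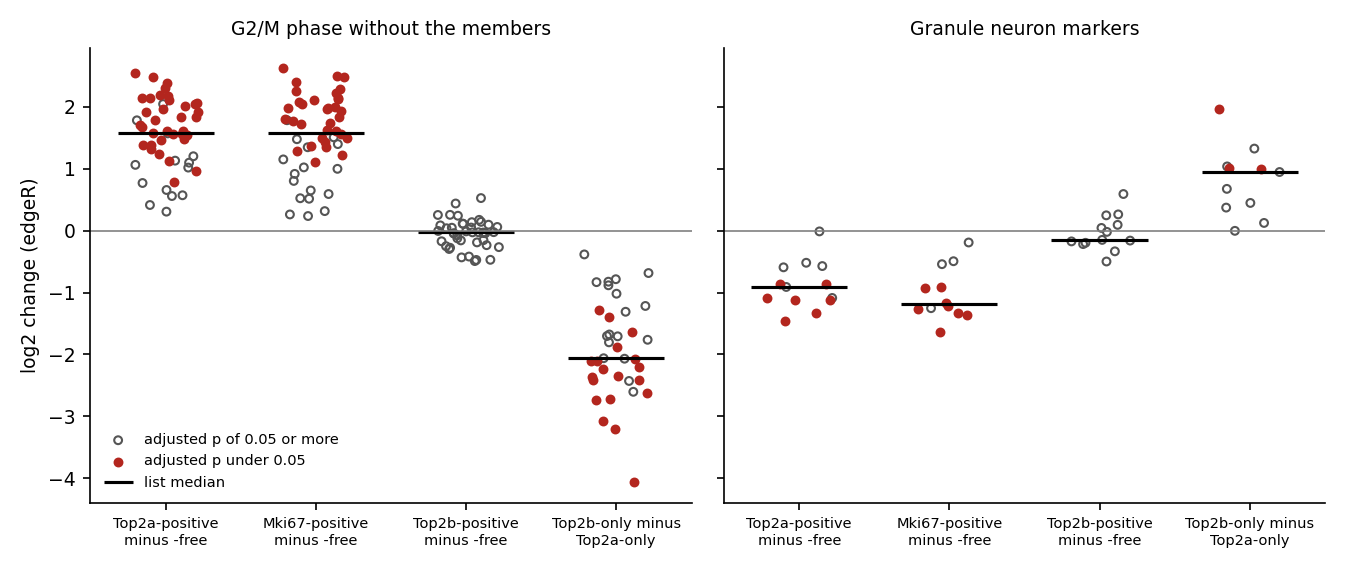
Log2 changes (edgeR) of single genes of the G2/M list without the 3 members and of the granule neuron list in 4 comparisons of cell sets; filled points passed an adjusted p of 0.05, bars are list medians. G2/M medians lie at 1.59, 1.58, -0.03 and -2.06 and granule neuron medians at -0.91, -1.19, -0.15 and 0.95, with no filled point for Top2b-positive against Top2b-free cells.

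Cells with Top2b alone of the topoisomerase II mRNAs had less Mki67 than cells with Top2a alone. The 174, 12 and 159 cells with Top2b but no Top2a were compared with the 212, 37 and 196 cells with Top2a but no Top2b, which are most of the Top2a-positive cells described above. Mki67 stood at 3.05, 2.91 and 5.39 counts per 10000 in Top2b-only cells of tumours 1, 2 and 3, against 26.2, 18.7 and 25.7 in Top2a-only cells. Mki67 had the smallest p of the comparison (log2 change -2.66, SE 0.28, edgeR adjusted p = 4.68e-18). Of 1571 genes 7 rose (0.446%) and 32 fell (2.04%), 2.48% in all. Neurod1 was among those that rose, at 16.8, 8.74 and 24.3 against 6.51, 11.7 and 12.2 (log2 change 1.01, SE 0.25, edgeR adjusted p = 0.00278), higher in tumours 1 and 3 and lower in tumour 2, where 12 Top2b-only cells held 3 Neurod1 counts. That call was lost without tumour 1 (0.44), without tumour 3 (0.64) and among barcodes of at most 10% mitochondrial counts (0.93, edgeR adjusted p = 0.318), and DESeq2 gave 0.69 with an adjusted p of 0.999.

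The G2/M list had 19 of 37 lower in Top2b-only cells and 0 higher (median log2 change -2.06, that over all genes being close to 0), with Casc5 at -3.21, Prc1 at -2.37, Tpx2, which nucleates spindle microtubules, at -2.35, Incenp at -2.23, Cenpf at -2.11 and Cenpe at -2.08. Sgol2 had 3, 0 and 0 counts in Top2b-only cells against 38, 5 and 30 in Top2a-only cells. The condensin subunits Smc4 (-1.87) and Smc2 (-1.43) fell, and 1 of 21 S phase genes did. The granule neuron list had 3 of 11 higher, Cntn2, Map2 and Neurod1, and named genes that rose in all 3 tumours were Rtn1 (1.03), Ckb (1.04) and Smpd3, a neutral sphingomyelinase gene (1.44). Without tumours 1, 2 and 3 in turn 6, 81 and 7 genes passed, Mki67 lay between -3.13 and -2.40, and the G2/M list had 4 of 24, 29 of 47 and 4 of 31 lower, while without tumour 1 or tumour 3 the granule neuron list had none higher. DESeq2 called 16 genes, all lower and all among the 39. Astrocyte markers summed to 18.7 to 29.0 counts per 10000 in Top2b-only against 11.7 to 18.6 in Top2a-only cells, with Mt2 at 0 in Top2b-only cells and all 14 detected in Top2a-only cells. Endothelial and mural markers summed to 1.05 to 20.3 against 0 to 1.72, with 3 and 6 of 13 at 0, among them Pecam1 in both sets, oligodendrocyte markers to 0 to 11.5 against 1.55 to 4.23 and myeloid markers to 2.34 to 17.4 against 4.80 to 78.9. Without barcodes called another type the G2/M list had 19 of 30 lower and Mki67 a log2 change of -2.51.

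Cells with Mki67 but no Top2a, 93, 18 and 117, were compared with those with Top2a but no Mki67, 126, 26 and 113, and no gene passed. With edgeR 0 of 762 genes passed (12 at an unadjusted p under 0.05), and with DESeq2 0 (2 unadjusted). Top2b had a log2 change of 0.06 (SE 0.37) and Neurod1 of -0.32 (SE 0.23), and the G2/M list a median of -0.13 over 23 genes, against -0.02 over all genes.

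The mRNAs found most often in the same cells as each member were ranked among 684 genes present in at least 100 thinned cells, by observed over expected cells, as a description. For Top2a they were Prc1 (2.50), Casc5 (2.38), Incenp (2.24), the ubiquitin ligase G2e3 (2.19) and Tpx2 (2.17). For Mki67 they were Incenp (2.60), Casc5 (2.47), Cenpe (2.45), Cenpf (2.31) and Prc1 (2.19), and the median over the 684 genes was 0.995 for Top2a and 1.01 for Mki67. Top2b had lower leading ratios, for the splicing kinase Srpk1 (1.63), the microtubule-associated exchange factor Arhgef2 (1.60), Smpd3 (1.57), Vezf1 (1.55) and the spectrin Sptbn1 (1.55). Of these, Srpk1 alone had a 95% interval wholly above 1 (1.01 to 2.49), with a ratio above 1 in 2 of 3 tumours. That interval takes no account of Srpk1 being the highest of 684 genes, so nothing is concluded from it. Neurod1 lay at 0.623 for Top2a, 0.550 for Mki67 and 1.08 for Top2b.

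High counts in single cells were seen for Top2a and Mki67 more than for Top2b, which also had fewer counts. Mean thinned counts per cell were 0.141, 0.0878 and 0.150 for Top2b in tumours 1, 2 and 3. They were 0.212, 0.297 and 0.228 for Top2a and 0.169, 0.223 and 0.244 for Mki67. The numbers of cells with 3 or more UMIs and the variance below depend on these means. A difference beyond them was not tested. In tumours 1 and 3, 64 and 62 cells held 3 or more Top2a UMIs and 62 and 66 as many Mki67 UMIs, against 18 and 9 for Top2b. Over all cells, those without the mRNA included, the variance of thinned counts over their mean was 1.57, 1.90 and 1.45 for Top2a and 1.75, 1.51 and 1.53 for Mki67 in tumours 1, 2 and 3, and 1.12, 0.918 and 1.10 for Top2b. The top 5% of cells held 48.2%, 38.5% and 44.0% of Top2a counts and 56.1%, 39.6% and 41.8% of Mki67 counts. For Top2b they held 43.6%, 53.3% and 39.3%. By this measure Top2b was highest in tumour 2 and lowest in tumours 1 and 3. In tumour 2 all 15 Top2b-positive cells held 1 UMI, so its value, from 8 cells, followed from their number alone. The highest counts of Top2a and Mki67, 29 and 31 UMIs, stood in the same barcode of tumour 1, which had 3053 counts, 2 Top2b UMIs and no Neurod1. That barcode was called an astrocyte by its markers.

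All 3 mRNAs were also found in barcodes of other cell types. Among 42 barcodes called myeloid, thinned to 200 counts, 4 (9.52%, exact 95% interval 2.66% to 22.6%) held Top2a, 2 (4.76%, 0.582% to 16.2%) Mki67 and 2 (4.76%, 0.582% to 16.2%) Top2b, at a median depth of 436 counts. Over all 162 barcodes called another type, median depth 527 counts, the shares were 14.2% for Top2a, 11.1% for Mki67 and 11.7% for Top2b. The mean shares in Neurod1-positive cells at the same thinned depth, 12.01% for Top2a, 9.93% for Mki67 and 11.7% for Top2b, lie within the intervals of the myeloid barcodes and at or below the shares of all other types. By share alone, detection of these genes in Neurod1-positive cells cannot be told from that in barcodes of other types. Of those 162 barcodes, 102 were called astrocyte. Whether they carried background or made these mRNAs themselves was not tested. The levels also moved with depth. Top2a averaged 8.10, 8.12, 11.6 and 14.3 counts per 10000 over 4 classes of barcodes of increasing depth, and Mki67 4.34, 5.75, 10.02 and 14.1. Neurod1 averaged 23.6, 21.8, 19.2 and 12.01, and Top2b 3.56, 4.01, 5.87 and 4.60. In the deepest class tumour 2 gave only 9 barcodes and 1 Top2b count. Top2b ran 3.27, 4.05, 6.47 and 6.31 in tumour 1 and 4.70, 4.42, 7.37 and 6.40 in tumour 3.

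**Figure D5:**
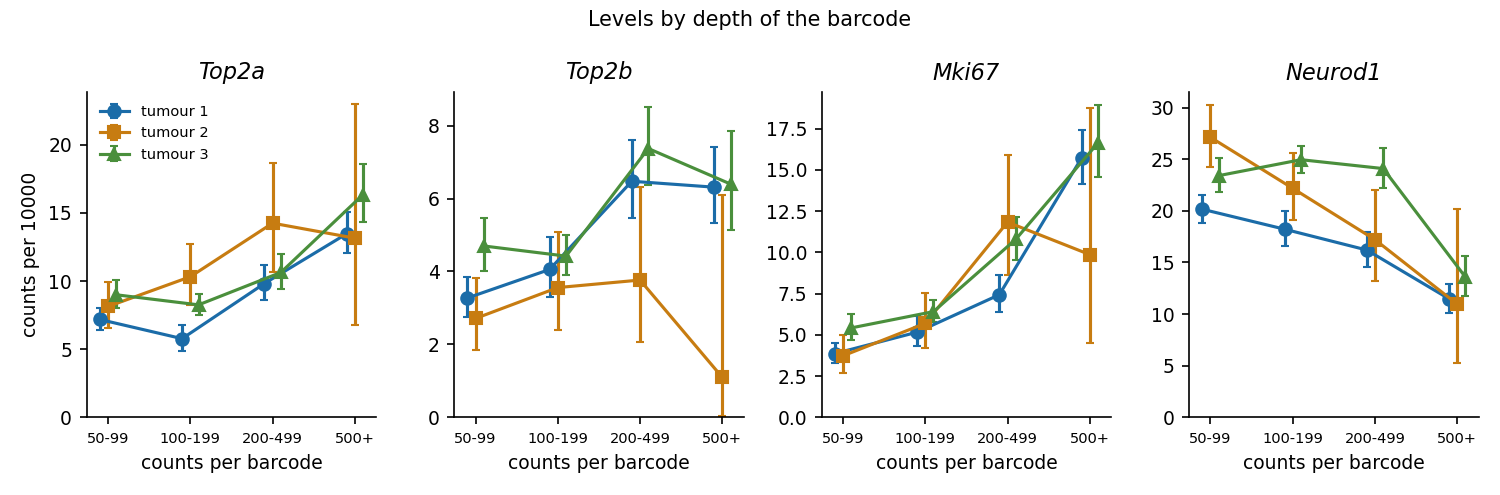
Levels of Top2a, Top2b, Mki67 and Neurod1 (counts per 10000, with exact 95% Poisson intervals) in barcodes of increasing total counts, 1 line per tumour, each panel on its own scale. Mki67 means run 4.34, 5.75, 10.02 and 14.1 from the shallowest to the deepest class, and Neurod1 means run 23.6, 21.8, 19.2 and 12.01.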

How the data were processed

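Drop-seq 3′ tag libraries of papain-dissociated tumour were analysed. The submitters' processing notes name STAR, Cell Ranger (versions and roles not given in the sources used here) and the build GRCh38, although 18566 of 19744 symbols (94.0%) are mouse gene names, so no coordinates of the files were used. The authors deposited counts of UMIs per gene and barcode with no normalisation recorded, at least 51 counts per barcode. Barcodes of at least 200 counts were kept, with no mitochondrial limit, and levels are counts per 10000. Thinning drew 200 counts per cell without replacement (seed 1), and intervals are exact at 95% and cover counting error only. Raw counts were summed per tumour and cell set and tested with edgeR 4.0.16 (TMM, filterByExpr, glmQLFit and glmQLFTest, Benjamini-Hochberg over genes tested, R 4.3.3), with the tumour as a block because both sets come from each tumour. DESeq2 1.42.0 was an alternative. Genes that define a comparison were left out of it. The fitting code was tested on simulated data. Scanpy 1.11.5 supplied Scrublet at an expected rate of 6%, which called 2, 29 and 2 doublets in tumours 1, 2 and 3; whether the uneven calls reflect doublets was not tested, and doublets were left in. A barcode was called another type with at least 3 UMIs of at least 2 markers. Named genes were the 10 of smallest p in each direction among those that passed and moved alike in all 3 tumours, the 5 with the highest co-detection ratios, and up to 4 of highest count per list. One gene that this rule names is not reported here. The members, lists and tests were chosen with earlier results of these data known. Cell sums and figures were made with pandas 2.3.3, scipy 1.17.1, numpy 2.4.6 and matplotlib 3.10.9 in Python 3.11.15.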

Additional observations from a re-analysis of the deposited data

Results flagged for a closer look

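All 3 mRNAs were also counted in barcodes too shallow for the comparisons. In barcodes of 50 to 99 counts, means over the 3 tumours were 8.10 counts per 10000 for Top2a, 3.56 for Top2b and 4.34 for Mki67, above the limit that a count of 0 would allow. What such barcodes hold was not tested.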

How the results depend on the processing

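Counts of calls changed with the tool, the tumours kept and the definition of the sets. In the order Neurod1, Top2b-only, Top2a and Mki67 comparison, 38, 39, 122 and 81 calls became 0, 16, 22 and 10 with DESeq2; leaving out 1 tumour, where each fit keeps few degrees of freedom, gave 0 to 106, 6 to 81, 18 to 239 and 0 to 152. Both sets come from the same tumours, so the tumour pairs them; with no replicate block the Neurod1, Top2a and Mki67 comparisons had 0, 44 and 18 calls. Sets defined from thinned counts gave 117, 74 and 40. The Neurod1 comparison had 95 without other cell types, 96 without called doublets and 62 at 300 counts. The Top2b comparison had 1 call (Apoe) with thinned sets and 0 to 1 without a tumour, and the Mki67-only comparison 1 (Spp1) with no filter on low counts. Top2a between Neurod1 sets lost its call with DESeq2 (-0.70), with no replicate block (-0.71) and without tumour 1 or 3 (range without a tumour -0.80 to -0.55). Mki67 gained one with thinned sets (-1.13), without other types (-0.50), without doublets (-0.51) and without tumour 2 (range without a tumour -0.61 to -0.44). Top2b reversed, uncalled, with thinned sets (-0.070) and without a tumour (range -0.085 to 0.13). Also uncalled, Neurod1 reversed with thinned sets in the Top2b (0.036) and Mki67-only (0.15) comparisons, and Top2b in the Mki67-only comparison with thinned sets (-0.021), at most 10% mitochondrial counts (-0.17), 300 counts (-0.085) and without a tumour (-0.17 to 0.094). Without a low-count filter the median of all genes moved to -0.24 in the Top2a, -0.21 in the Mki67 and -0.12 in the Neurod1 comparison.

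Shares rest on depth. Raw shares were 25.1%, 17.1% and 22.3% of all cells for Top2a, Top2b and Mki67, 19.5%, 18.1% and 18.4% of Neurod1-positive and 28.0%, 16.5% and 24.4% of Neurod1-free cells. At 100 counts they were 7.61%, 3.98% and 5.49%, then 6.83%, 4.72% and 4.91%, then 7.85%, 3.76% and 5.67%. From 300 counts up, Neurod1-positive cells had Mki67 in 11.9% and Neurod1-free cells Top2a in 24.9%. Mean co-detection ratios over tumours at 100 counts were 1.53 for Top2a with Mki67 and 1.35 for Mki67 with Top2b, against 2.23 and 0.520 at 200 counts. The cause of these changes was not tested. Of 232 values of main results under alternatives, 172 kept their direction and side of the threshold or stayed within their spread. Counts of calls were included where they stayed within a fixed factor of the main count.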
